A study of Mus musculus with 68 samples.

Results

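The genes described here are 10 neuronal genes that were picked because they stood high in mouse motor neuron cultures with induced Lhx3 or with DNLhx3, a dominant-negative form of Lhx3: Rpp25, Cbln1, Cbln2, Cbln4, Car10, Slitrk6, Lamp5, Reln, Dlk1 and Tafa4. They are 10 of 19938 genes measured. Each was taken as the transcript cluster (the probe set that stands for a transcript) annotated to that symbol alone, with the highest mean over all arrays where there were several. The genes were chosen by their levels in the Lhx3 and DNLhx3 lines against the controls, so those levels and their differences from the controls are given as a description with no test. Tests were made only in lines without Lhx3 or DNLhx3, and on related genes that were not members.

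The study asked which factors turn on genes of the phrenic motor neurons, which innervate the diaphragm, by comparing induced lines with YFP controls. Mouse ES cells (strain label C57/BL6) were grown as embryoid bodies, treated on day 2 with a Smoothened agonist and retinoic acid, and on day 5 taken apart and enriched on magnetic columns for either a CD2 or a CD14 surface reporter. The cells were then cultured for 30 h on matrigel, with the transgene induced by doxycycline for all 30 h, or for 10 h in Notch1 ICD (10) and NERT (10). The 68 arrays comprised 45 of CD2 and 23 of CD14 cells in 8 batches as the labels number them. The groups used most were CD2 YFP (4 arrays), CD2 Lhx3 (2), CD2 DNLhx3 (2), CD14 YFP (4), CD14 Pou3f1 (2), CD14 Pou3f1;Lhx3 (2) and CD14 Pou3f1;DNLhx3 (2). The comparison of lines "with Pou3f1" and "without Pou3f1" is therefore also one of CD14 with CD2 cells, and the reporter and Pou3f1 cannot be told apart in it. The other lines carried Pou3f1, Pou3f1-FLAG, Pou3f1;Hoxa5, Pou3f1;Hoxc6, Hoxa5, Hoxc6, Zic1, Hey1, Klf5, Klf6, Sfmbt2, Zbtb7c, Chd5, Btbd3, Vwc2, Arid5b, Tox, Notch1 ICD (the intracellular domain of Notch1), NERT (named as in the labels), or the parental lines H4 and E3. The numbers 10 and 30 after Notch1 ICD and NERT give the hours of induction. The sources do not give the promoter of the reporter, whether a line is 1 clone, how DNLhx3 was built, or whether replicates are independent cultures. The p-values therefore reflect the spread among these samples alone, and that spread may be technical.

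Lhx3 is a LIM homeodomain transcription factor. With Isl1 and the adaptor Ldb1 it forms the complex that specifies spinal motor neurons, and without Isl1 it takes part in specifying V2a interneurons. Motor neurons of the median column keep Lhx3, whereas those of other columns, phrenic neurons among them, lose it. Pou3f1 (also called SCIP or Oct6) is a POU homeodomain factor that marks phrenic motor neurons. The members are mostly proteins of the cell surface or the synapse. Cbln1, Cbln2 and Cbln4 are secreted C1q-family organisers that bind neurexins, and Car10 is a secreted carbonic anhydrase-related protein without catalytic activity that also binds neurexins. Slitrk6 is a leucine-rich-repeat membrane protein of neurons, and Lamp5 is the neuronal member of the lysosome-associated membrane protein family. Reln is the secreted glycoprotein that guides neuronal positioning through Vldlr, Lrp8 and Dab1. Dlk1 is an imprinted membrane protein related to Notch ligands, and Tafa4 is a small chemokine-like secreted protein. Rpp25 is a protein subunit of the RNA-processing enzymes RNase P and RNase MRP.

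Values are log2 intensities, so a difference of 1 is a factor of 2, and they cannot be compared between genes because each gene has its own probes. Array medians were 7.57 to 7.84 in batches 1 to 7. The induced Lhx3 read 11.38 and 11.03 in CD2 Lhx3 and 11.65 and 11.64 in CD14 Pou3f1;Lhx3, against 7.67 to 7.87 in the 8 YFP arrays. It was higher than YFP by 3.31 ± 0.40 (adjusted p = 2.02e-06, limma) and by 3.89 ± 0.28 (adjusted p = 1.32e-12, limma). In the DNLhx3 lines the Lhx3 probe set read 7.94 and 8.26 (CD2) and 8.39 and 8.45 (with Pou3f1), and neither difference from YFP passed the test (adjusted p = 0.586 and 0.372, limma). Since the labels do not say which part of Lhx3 the dominant-negative form holds, that probe set checks nothing there. Pou3f1 itself was higher than YFP by 1.30 ± 0.19 (Pou3f1;Lhx3) and by 0.98 ± 0.19 (Pou3f1;DNLhx3), with adjusted p = 7.67e-06 and 0.000448 (limma).

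The 10 genes did not form one pattern (the plot of each gene by array). Rpp25 was more than 1 log2 unit above YFP in all 4 lines. Lamp5 and Cbln4 were high above all with DNLhx3, and Slitrk6 and Cbln1 with Lhx3. Tafa4 was high only in the line with both Pou3f1 and Lhx3, and Reln was highest with Pou3f1 and DNLhx3. Dlk1 was also high in Pou3f1 lines without a transgene of either Lhx3 form. Car10 was moderately above YFP in all 4 lines. Cbln2 goes against the name under which the genes were gathered: its fitted level was below YFP in all 4 lines and over 1 log2 unit above YFP in 0 of them. By count, the members over 1 log2 unit above YFP numbered 5 in CD2 Lhx3 (1.46% of all genes), 5 in CD2 DNLhx3 (0.507%), 5 in Pou3f1;Lhx3 (0.752%) and 6 in Pou3f1;DNLhx3 (0.667%). These counts only restate the choice of the genes.

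**Figure D1:**
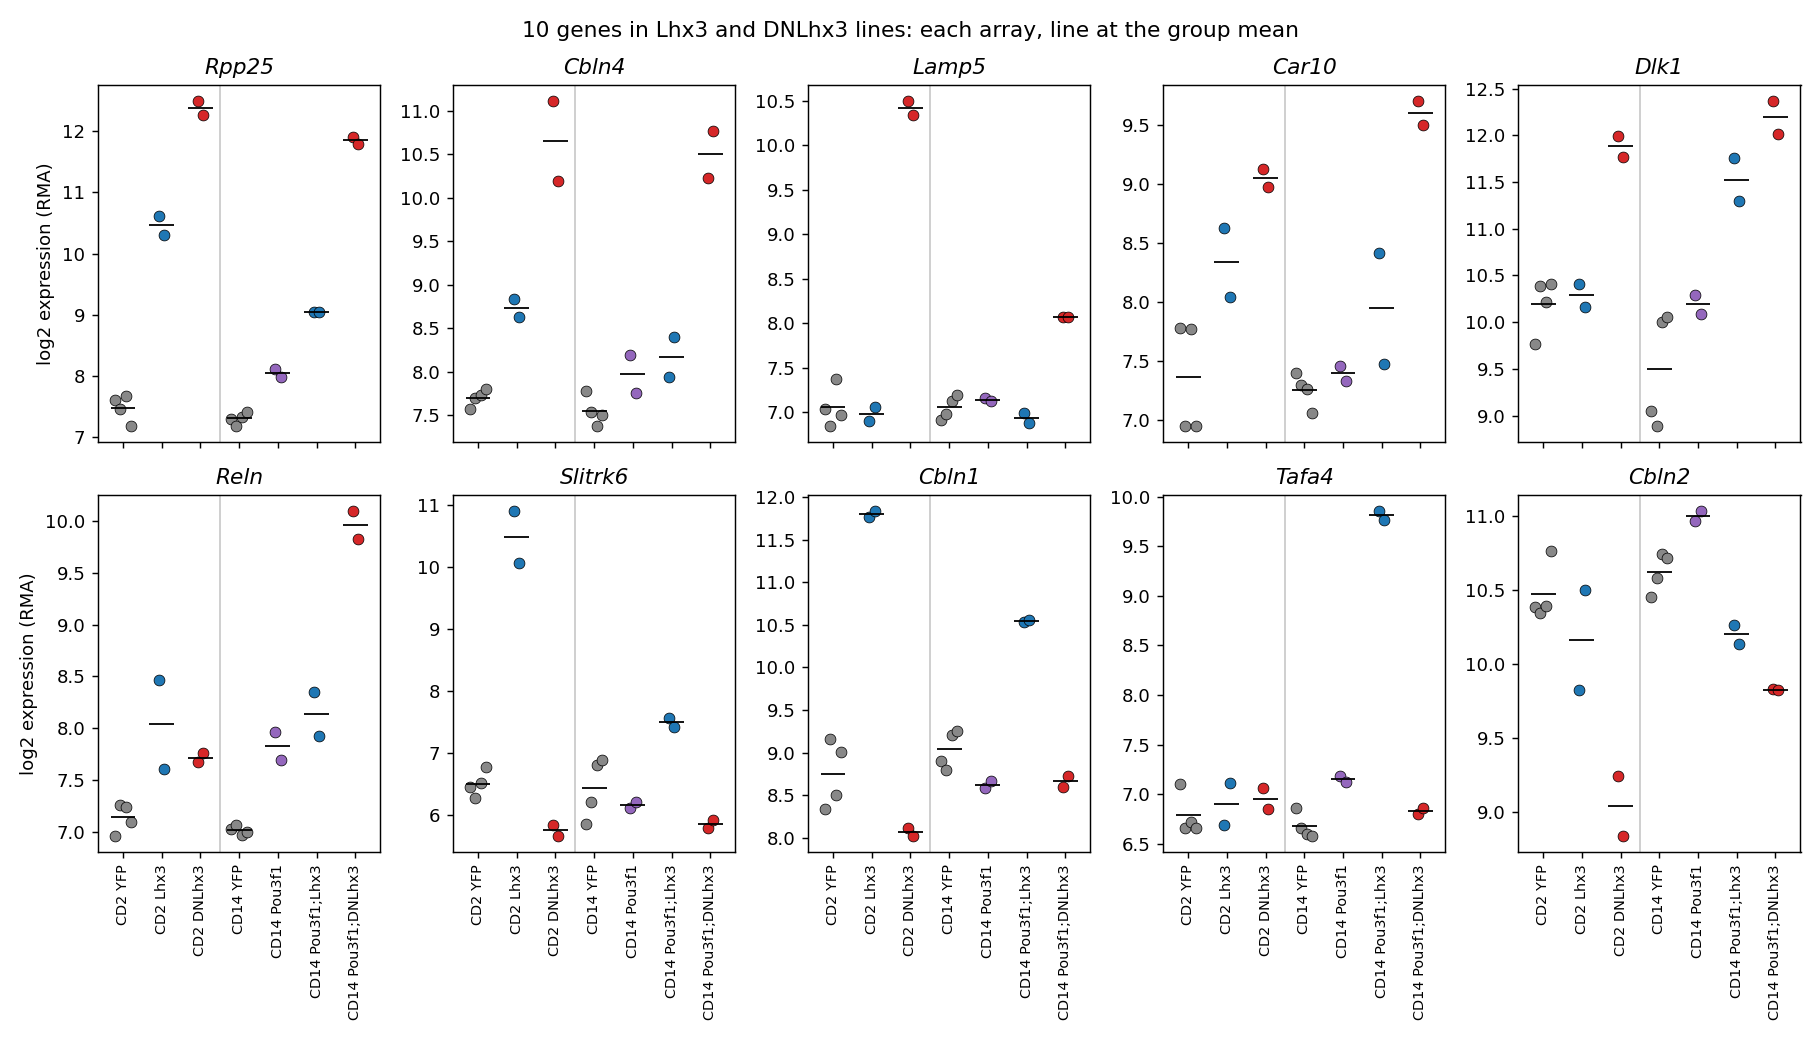
Log2 intensity of each of the 10 genes (1 panel per gene) in every array of 7 groups. Dots are arrays and the short line is the group mean. Rpp25 and Cbln4 are highest in the DNLhx3 lines with and without Pou3f1, Slitrk6 and Cbln1 in CD2 Lhx3, and Tafa4 stands high only in Pou3f1;Lhx3.

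One limit applies to every CD2 Lhx3 difference. The CD2 Lhx3 arrays lay in batches 5 and 6, which hold no CD2 YFP array, so these differences from YFP rest on lines shared between batches. Other values, given beside these differences, do not need that tie: the other arrays of batch 5, and the Zic1 line, which has 1 array in each of batches 5 and 6 as Lhx3 does. DNLhx3 (batch 3), Pou3f1;DNLhx3 (batch 6) and Pou3f1;Lhx3 (batch 7) each had 2 YFP arrays in their own batch.

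Rpp25 had the largest difference from YFP of all 19938 genes in both DNLhx3 lines. It read 12.49 and 12.27 in CD2 DNLhx3 and 7.18 to 7.67 in the 4 CD2 YFP arrays, a difference of 4.90 ± 0.25, or 29.9-fold. With Pou3f1 it read 11.91 and 11.79 for DNLhx3 against 7.18 to 7.41 in the 4 CD14 YFP arrays, a difference of 4.61 ± 0.26, or 24.5-fold. Lhx3 gave lower levels of the same gene. In CD2 Lhx3 it read 10.62 and 10.31 (3.21 ± 0.38 above YFP, rank 3 of all genes), and in Pou3f1;Lhx3 it read 9.05 in both arrays (1.68 ± 0.26). In batch 5 the Lhx3 array was 2.47 above the mean of the other 5 CD2 arrays, and over both batches Lhx3 was 1.90 ± 0.26 above Zic1, which itself read 8.98 and 8.16. None of the other 58 arrays of batches 1 to 7 reached the level of the CD2 Lhx3 or the DNLhx3 arrays: they ran from 7.06 to 9.47 with a median of 7.54. The Pou3f1;Hoxc6 line, at 9.25 ± 0.09 (SD, n = 2), came next after CD2 Lhx3 in the order of group means, ahead of Pou3f1;Lhx3.

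Cbln4, which binds neurexins and also receptors of the DCC and neogenin family, had the same order of lines as Rpp25. It read 11.11 and 10.19 in CD2 DNLhx3 against 7.58 to 7.80 in CD2 YFP, a difference of 2.98 ± 0.18 (7.88-fold). With Pou3f1, DNLhx3 gave 10.23 and 10.76 against 7.38 to 7.78 in CD14 YFP, a difference of 2.84 ± 0.20. The means of both DNLhx3 lines, 10.65 ± 0.65 and 10.50 ± 0.38 (SD, n = 2), did not differ beyond their spread. The Lhx3 levels were nearer to the controls. CD2 Lhx3 read 8.83 and 8.63 (0.99 ± 0.28 above YFP, 1.10 ± 0.20 above Zic1), and Pou3f1;Lhx3 read 7.95 and 8.40 (0.73 ± 0.20 above YFP). The other 58 arrays ran from 7.38 to 8.48, so the Pou3f1;Lhx3 arrays lie within them while the other 6 arrays lie above.

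Across the 30 groups that share batches with others, the group levels of Rpp25 and Cbln4 had a Pearson correlation of 0.93, the highest that either gene had with any gene. Without the 4 lines with Lhx3 or DNLhx3 it was 0.75 over 26 groups. These correlations are descriptions over groups that share batch terms and controls, and the first rests mainly on the lines that chose the genes. Rpp25 and Cbln4 were highest with DNLhx3 and Slitrk6 with Lhx3, although Rpp25 and Cbln4 were also above YFP in both Lhx3 lines. The sequence just before the start of these 3 genes is shown. It comes from RefSeq on build GRCm38.p6, 5′ to 3′ on the gene's strand, as far as it lies outside the gene. Capitals mark TAAT or ATTA, the core that homeodomain proteins bind.
Rpp25 (chr9:57503852-57504101, plus strand): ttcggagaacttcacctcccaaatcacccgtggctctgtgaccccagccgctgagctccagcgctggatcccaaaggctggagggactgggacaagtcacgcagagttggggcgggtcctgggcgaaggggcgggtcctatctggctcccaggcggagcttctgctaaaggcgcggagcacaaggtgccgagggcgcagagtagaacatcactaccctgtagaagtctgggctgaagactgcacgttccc
Cbln4 (chr2:172043467-172043716, minus strand): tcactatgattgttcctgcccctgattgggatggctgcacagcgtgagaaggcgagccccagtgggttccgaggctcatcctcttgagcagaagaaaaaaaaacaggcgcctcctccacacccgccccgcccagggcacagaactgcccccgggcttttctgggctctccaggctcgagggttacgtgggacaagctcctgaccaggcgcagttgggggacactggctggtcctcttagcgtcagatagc
Slitrk6 (chr14:110755205-110755399, minus strand): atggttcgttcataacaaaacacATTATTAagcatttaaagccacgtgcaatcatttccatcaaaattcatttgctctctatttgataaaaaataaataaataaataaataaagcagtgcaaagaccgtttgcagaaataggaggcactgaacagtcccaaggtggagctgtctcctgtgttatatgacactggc
The Rpp25 and Cbln4 windows are GC-rich (62.4% and 60.8%), hold neither TAAT nor ATTA, and so have no capitals. The Slitrk6 window has a GC content of 35.4% and 1 run of capitals of 7 bases, in which 2 matches overlap. A further match, 53 bases before the start site, lies outside the stretch shown. The median GC content of all 32851 windows was 52.4%.

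Windows of up to 250 bases were found for 8 of the 10 members, with 2 each for Lamp5 and Car10, so 10 windows in all. TAATTA, the palindromic LIM homeodomain core, was in 0 of these 10 windows and in 4.84% of all windows, counting both strands. The octamer ATGCAAAT or ATTTGCAT, which POU factors bind, was in 0 of the 10 and in 1.60% of all windows. TAAT or ATTA, which every TAATTA also contains, was in 2 of the 10 (Slitrk6 and 1 window of Lamp5) and in 54.9% of all. These are matches of letters in short windows and say nothing of where Lhx3 binds.

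Slitrk6 had the largest difference of all genes in CD2 Lhx3 and was not high with DNLhx3. It read 10.91 and 10.07 in CD2 Lhx3 against 6.27 to 6.76 in CD2 YFP, a difference of 4.28 ± 0.37 (19.4-fold). In batch 5 the Lhx3 array stood 4.97 above the mean of the other CD2 arrays, and Lhx3 was 4.69 ± 0.26 above Zic1, whose arrays read 5.80 and 5.79. In CD2 DNLhx3 it read 5.83 and 5.66, below all 4 YFP arrays (-0.85 ± 0.24). The range of the 58 other arrays was 5.21 to 7.05, which holds the DNLhx3 arrays and lies wholly below the Lhx3 arrays. With Pou3f1 the levels were much closer together. Pou3f1;Lhx3 read 7.57 and 7.42 against 6.80 and 6.89 in the YFP arrays of its batch (0.65 ± 0.26), and Pou3f1;DNLhx3 read 5.78 and 5.92 against 5.85 and 6.21 (-0.18 ± 0.26).

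Cbln1, the cerebellin known from the synapses of cerebellar parallel fibres, also followed Lhx3 and not DNLhx3. It read 11.76 and 11.84 in CD2 Lhx3 against 8.34 to 9.16 in CD2 YFP, a difference of 2.99 ± 0.43 (7.93-fold). Zic1, in the same batches, read 10.01 and 10.12, while the H4 array of batch 5 read 8.78, within the CD2 YFP range. Lhx3 was 1.74 ± 0.30 above Zic1 and 1.85 above the mean of the other batch 5 arrays. In Pou3f1;Lhx3 Cbln1 read 10.53 and 10.56 against 9.21 and 9.25 in the same-batch YFP (1.32 ± 0.30). DNLhx3 gave 8.11 and 8.03 in CD2 cells (-0.60 ± 0.28) and 8.60 and 8.73 with Pou3f1 (-0.18 ± 0.30). All 4 Lhx3 arrays were above all 8 YFP arrays, and the DNLhx3 arrays were below or among them. The highest other array read 10.88, so the CD2 Lhx3 arrays stood above every array without Lhx3, while Pou3f1;Lhx3 did not.

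Cbln2, another secreted cerebellin, was near or below the controls in every Lhx3 and DNLhx3 line. It read 9.24 and 8.84 in CD2 DNLhx3 against 10.39 and 10.77 in YFP of the same batch (-1.76 ± 0.28 in the model). The lowest other array of batch 3 read 9.19, so the groups overlap when all lines of that batch are counted. Pou3f1;DNLhx3 read 9.83 and 9.82 against 10.45 and 10.58 in same-batch YFP (-0.69 ± 0.30), and Pou3f1;Lhx3 read 10.27 and 10.14 against 10.74 and 10.72 (-0.53 ± 0.30). For CD2 Lhx3 the arrays read 9.82 and 10.50, the highest of which lies within the CD2 YFP range of 10.34 to 10.77. The fitted difference of -1.67 ± 0.43 rests on the tie between batches, since Lhx3 was 0.25 ± 0.30 above Zic1.

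Car10 was above YFP by 0.79 to 2.25 in all 4 lines. It read 9.13 and 8.98 in CD2 DNLhx3 against 6.95 to 7.78 in CD2 YFP (1.78 ± 0.27), and 9.70 and 9.50 in Pou3f1;DNLhx3 against 7.06 to 7.40 in CD14 YFP (2.25 ± 0.29). CD2 Lhx3 read 8.63 and 8.04 (1.59 ± 0.41, and 0.60 ± 0.29 above Zic1), and Pou3f1;Lhx3 read 8.42 and 7.47 (0.79 ± 0.29). The latter pair of arrays is the most spread of the 4. Car10 was also high in 6 batch 4 arrays of other lines (7.88 to 9.04, all above the CD2 YFP arrays), which are described further on. The Hoxa5 line, with 1 of those arrays, at 8.58 ± 0.64 (SD, n = 2), came after both DNLhx3 lines in the order of group means and did not differ from CD2 DNLhx3 (9.05) or CD2 Lhx3 (8.34 ± 0.41) beyond that spread.

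Lamp5 had its highest level with DNLhx3 in CD2 cells. It read 10.50 and 10.34 in CD2 DNLhx3 against 6.84 to 7.37 in CD2 YFP, a difference of 3.35 ± 0.16 (10.2-fold) and rank 3 of all genes in that line. With Pou3f1 the same form gave 8.07 in both arrays against 6.91 to 7.19 in CD14 YFP (1.12 ± 0.17). The Lhx3 arrays were not higher than the controls: 6.90 and 7.06 in CD2 Lhx3 (-0.52 ± 0.25) and 6.99 and 6.88 in Pou3f1;Lhx3 (-0.22 ± 0.17) lie within or beside the YFP range. The Pou3f1;DNLhx3 mean did not differ from that of Notch1 ICD (10), 8.04, beyond the spread of arrays.

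Reln was highest in Pou3f1;DNLhx3. It read 10.10 and 9.83 there against 6.97 to 7.06 in CD14 YFP, a difference of 2.92 ± 0.16 (7.57-fold). In CD2 DNLhx3 it read 7.67 and 7.76 against 6.96 to 7.26, only 0.64 ± 0.15 above YFP. Lhx3 gave intermediate values with and without Pou3f1: 8.47 and 7.60 in CD2 Lhx3 (1.47 ± 0.24, and 0.77 ± 0.16 above Zic1) and 8.35 and 7.92 in Pou3f1;Lhx3 (1.16 ± 0.16). The Pou3f1 line alone read 7.96 and 7.69. Other arrays reached 8.92 (Hoxc6), so only the Pou3f1;DNLhx3 arrays stood above all arrays of other lines.

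Among the 4 Lhx3 and DNLhx3 lines, Dlk1 was also highest in Pou3f1;DNLhx3, but its controls differed between batches. CD14 YFP read 9.05 and 8.89 in batch 6 and 10.01 and 10.05 in batch 7, so each CD14 line is set against its own batch. Pou3f1;DNLhx3 read 12.36 and 12.02 (batch 6, 3.22 ± 0.25 above YFP, 9.33-fold) and Pou3f1;Lhx3 read 11.76 and 11.29 (batch 7, 1.50 ± 0.25). CD2 DNLhx3 read 11.99 and 11.77 against 10.22 and 10.41 in same-batch YFP, a difference of 1.56 (1.64 ± 0.23 in the model). CD2 Lhx3, at 10.41 and 10.17, lay in the CD2 YFP range of 9.77 to 10.41 (0.27 ± 0.35). Dlk1 is the member with the widest range elsewhere: the other 58 arrays ran from 8.76 to 13.46, and the highest group mean of all was that of CD2 Pou3f1, 12.34 ± 0.98 (SD, n = 4). That rank rests on its arrays of batch 4, which read 12.80 and 13.46, while those of batches 1 and 2 read 11.25 and 11.85. The latter pair lay below both Pou3f1;DNLhx3 arrays, but 11.85 lay between the CD2 DNLhx3 arrays (11.99 and 11.77).

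Tafa4 was high in a single line. Pou3f1;Lhx3 read 9.86 and 9.77 against 6.58 to 6.86 in CD14 YFP, a difference of 3.22 ± 0.15 (9.29-fold) and rank 5 of all genes there. CD2 Lhx3 (6.70 and 7.12), CD2 DNLhx3 (7.07 and 6.85) and Pou3f1;DNLhx3 (6.80 and 6.86) all lay in or beside the YFP range of 6.58 to 7.11, with differences of 0.12 ± 0.22, 0.25 ± 0.14 and 0.07 ± 0.15. The Pou3f1 line without Lhx3 read 7.19 and 7.13. No other array exceeded 7.78, and the next group mean was 7.47 in CD2 Pou3f1.

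**Figure D2:**
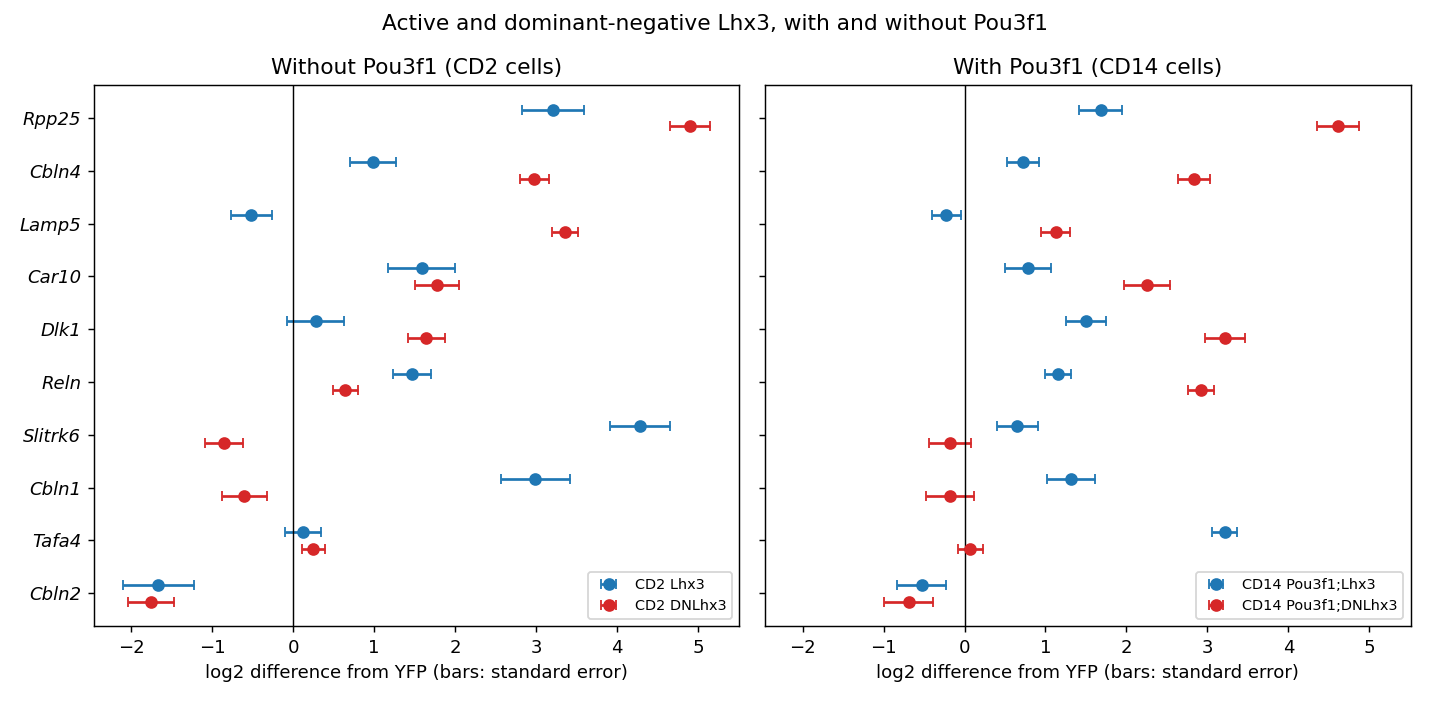
Log2 difference from YFP of the same reporter ± SE from the limma model, for Lhx3 (blue) and DNLhx3 (red), without Pou3f1 in CD2 cells (first panel) and with Pou3f1 in CD14 cells (second panel). Slitrk6 and Cbln1 have the blue point above the red one in CD2 cells, Lamp5, Cbln4 and Rpp25 the red above the blue, and Tafa4 is at 3.22 ± 0.15 only for Lhx3 with Pou3f1.

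Set directly against each other in CD2 cells, Lhx3 exceeded DNLhx3 by 5.14 ± 0.41 for Slitrk6, 3.59 ± 0.47 for Cbln1 and 0.82 ± 0.26 for Reln. DNLhx3 exceeded Lhx3 for Lamp5 (Lhx3 minus DNLhx3, -3.88 ± 0.28), Cbln4 (-1.99 ± 0.31), Rpp25 (-1.69 ± 0.42) and Dlk1 (-1.37 ± 0.39). For Car10 (-0.19 ± 0.46), Cbln2 (0.09 ± 0.48) and Tafa4 (-0.12 ± 0.25) the difference was smaller than its SE. With Pou3f1 the order of the forms was the same for Cbln1 (1.50 ± 0.42), Slitrk6 (0.83 ± 0.36), Rpp25 (-2.93 ± 0.37), Cbln4 (-2.11 ± 0.28), Dlk1 (-1.72 ± 0.35) and Lamp5 (-1.35 ± 0.25). It was the opposite for Reln (-1.77 ± 0.23), and Tafa4 (3.15 ± 0.22) and Car10 (-1.47 ± 0.41) now differed by more than 3 times the SE. Cbln2 again did not (0.16 ± 0.43). The 2 lines compared in CD2 cells came from different batches, as did the 2 lines in CD14 cells.

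Against Pou3f1 alone in CD14 cells, adding DNLhx3 gave Rpp25 3.80 ± 0.26, Cbln4 2.52 ± 0.20, Car10 2.21 ± 0.29, Reln 2.14 ± 0.16 and Dlk1 2.00 ± 0.25 more on the log2 scale. These lines share batch 6. Lamp5 was 0.93 ± 0.17 higher, Cbln1 (0.04 ± 0.30), Slitrk6 (-0.30 ± 0.26) and Tafa4 (-0.33 ± 0.15) were near the Pou3f1 line, and Cbln2 was lower (-1.17 ± 0.30). Adding Lhx3 to Pou3f1 gave Tafa4 2.82 ± 0.22 and Cbln1 1.54 ± 0.42 more, and Cbln2 -1.01 ± 0.43. Rpp25 was 0.87 ± 0.37 higher. The remaining members were within 2 SE of the Pou3f1 line: Car10 (0.74 ± 0.41), Slitrk6 (0.53 ± 0.36), Cbln4 (0.41 ± 0.28), Reln (0.38 ± 0.23), Dlk1 (0.28 ± 0.35) and Lamp5 (-0.42 ± 0.25). For Dlk1 and Reln, most of the height above YFP was also present with Pou3f1 alone. The comparison of Pou3f1;Lhx3 with Pou3f1 spans batches 6 and 7.

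Within batches, the arrays of a line can be set against all other arrays of the same reporter. In batch 3, Rpp25, Lamp5, Cbln4, Car10, Dlk1 and Reln, 6 of the 10 members, had both DNLhx3 arrays above the other 13 CD2 arrays, against 3.04% of all genes. In batch 6, Rpp25, Lamp5, Cbln4, Car10, Dlk1 and Reln were again the 6 members that had both Pou3f1;DNLhx3 arrays above the other 11 CD14 arrays, against 5.49% of all genes. In batch 7, 7 members had both Pou3f1;Lhx3 arrays above the other 6 CD14 arrays and 1 below, against 12.9% and 8.63% of genes. In batch 5, the single CD2 Lhx3 array was above the other 5 for 5 members and below them for 1, against 20.8% and 26.7% of genes. The choice of the genes fixed these counts, and nothing is read from them.

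In the 23 lines without induced Lhx3 or DNLhx3, 29 of 230 pairs of member and line differed from YFP (limma, adjusted p under 0.05 over all 19938 genes): 22 higher and 7 lower. The choice of the genes did not use these lines, but it did use the YFP arrays that serve as their controls. These counts are therefore not independent of the choice. The 29 pairs came from 11 lines, in which 0.291% (Zic1) to 8.98% (Pou3f1;Hoxc6) of all genes were called. In the other 12 lines 0 of 120 pairs passed (limma) and 16 had an unadjusted p under 0.05. The share of all genes called there was 0.471% in Klf6, 0.416% in NERT (10), 0.311% in Klf5, 0.0602% in Tox, 0.0451% in Btbd3, 0.0251% in Zbtb7c, 0.0150% in Vwc2, 0.0100% in Arid5b, 0.00502% in H4, and 0% in Sfmbt2, Chd5 and Hoxa5. Slitrk6 and Car10 were called in 0 of the 23 lines (limma, 4 and 3 lines with an unadjusted p under 0.05). Reln and Dlk1 passed as higher in 5 lines each, Tafa4 in 3, Cbln4 in 2 and Lamp5 in 1, with 0 lower. Rpp25 was higher in 2 and lower in 1, Cbln1 higher in 2 and lower in 2, and Cbln2, with the most calls, higher in 2 and lower in 4.

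**Figure D3:**
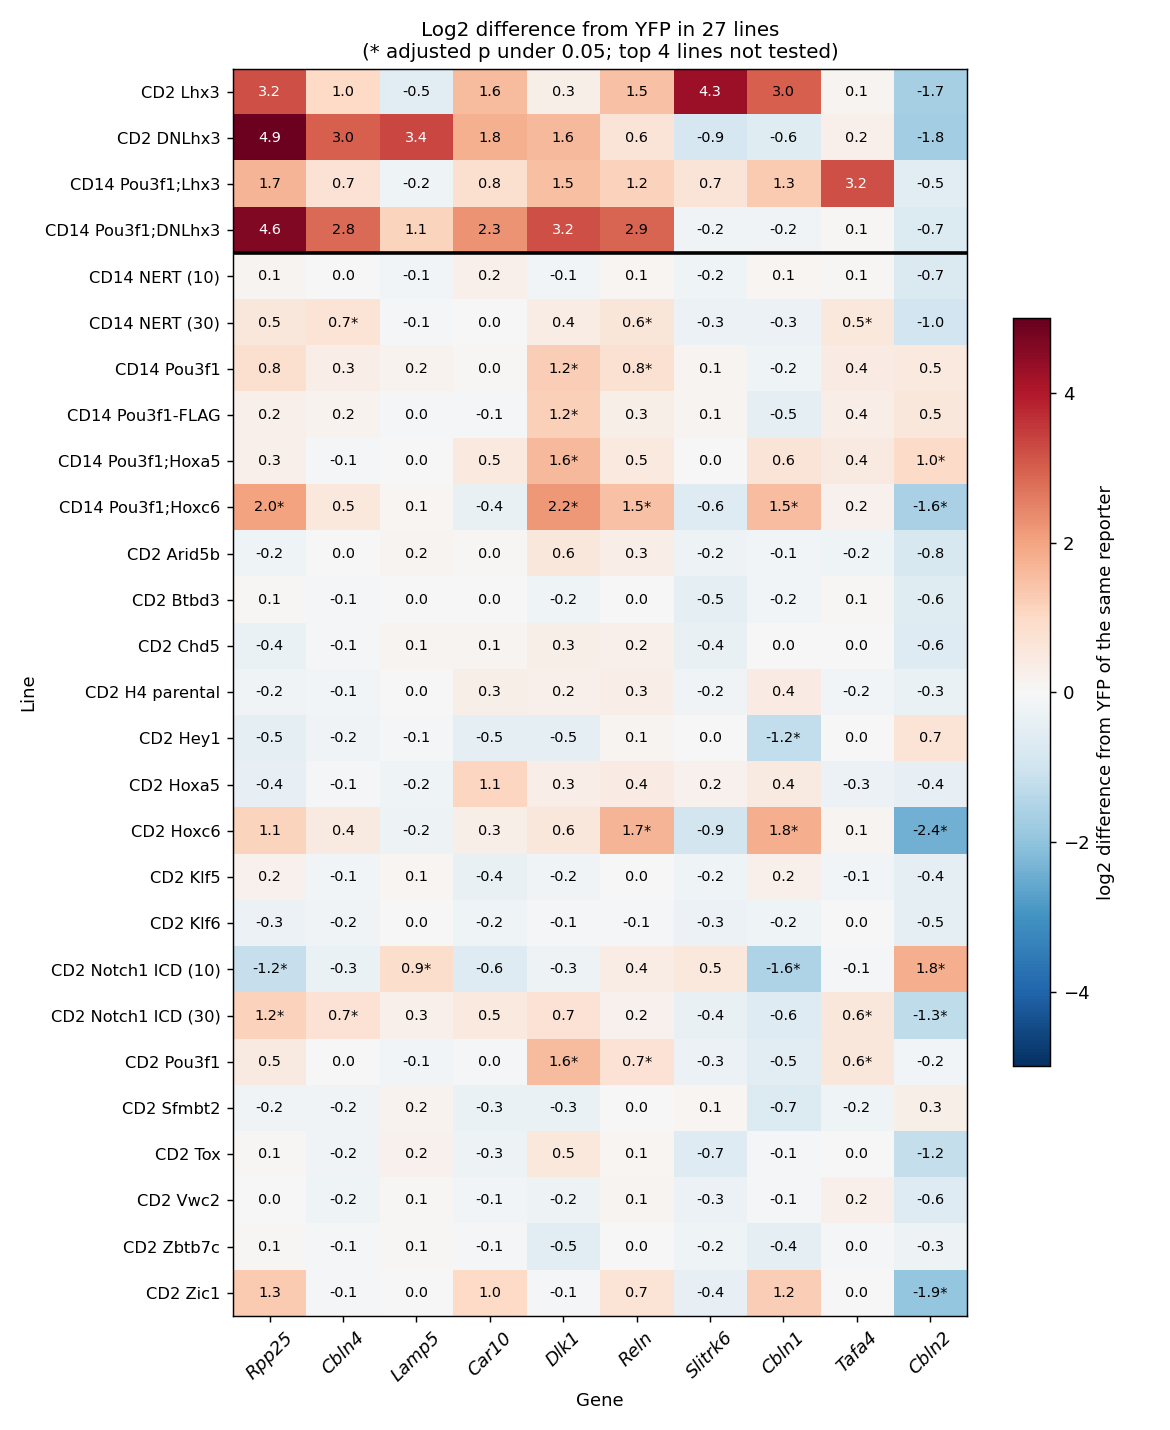
Heat map of the log2 difference from YFP of the same reporter for the 10 genes (columns) in 27 lines (rows). The colour gives the difference, and an asterisk marks an adjusted p under 0.05 (limma) in the 23 lines that were tested. The 4 Lhx3 and DNLhx3 lines at the top were not tested. Dlk1 and Reln carry asterisks in Pou3f1 lines, and Slitrk6 and Car10 carry none.

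Dlk1 and Reln rose in the lines whose only transgene was Pou3f1. In CD2 Pou3f1, where 2.09% of genes were called, Dlk1 read 11.25, 11.85, 12.80 and 13.46 in its 4 arrays against 9.77 to 10.41 in CD2 YFP. The groups did not overlap, and Dlk1 rose by 1.57 ± 0.20 (adjusted p = 2.22e-06, limma). The 2 highest arrays, of batch 4, also read Lhx3 at 10.02 and 10.42. In batches 1 and 2 the Pou3f1 arrays read Lhx3 at 7.94 and 7.88. There Dlk1 was 1.48 and 1.46 above the YFP array of the batch. Reln read 7.59 to 8.10 in the 4 CD2 Pou3f1 arrays against 6.96 to 7.26 in CD2 YFP. It rose by 0.70 ± 0.13 (adjusted p = 0.00121, limma), a call lost without the batch 1 YFP array (0.53). Tafa4 rose by 0.56 ± 0.12 (adjusted p = 0.00757, limma), a call lost without the batch 2 YFP array (0.52) and without 6 arrays of batch 4 that are described further on (0.39, with 2.64% of genes called). In CD14 Pou3f1, where 0.306% of genes were called, Dlk1 (10.30 and 10.09 against 9.05 and 8.89 in same-batch YFP) rose by 1.22 ± 0.25 and Reln (7.96 and 7.69 against 7.03 and 7.06) by 0.78 ± 0.16 (adjusted p = 0.0109 and 0.0181, limma). Neither group overlapped its controls, but either call was lost on leaving out any 1 of these 4 arrays, with Dlk1 then between 1.12 and 1.33 and Reln between 0.64 and 0.92. The effect of Pou3f1 in CD14 minus that in CD2 cells was called for 0 of the members (limma, 0 with an unadjusted p under 0.05) and for 0.0100% of all genes.

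Pou3f1 with Hoxc6, a Hox factor of the brachial cord, changed 5 members, and each call held on leaving out any 1 array. In Pou3f1;Hoxc6, where 8.98% of genes were called, Rpp25 read 9.18 and 9.31 and rose by 2.01 ± 0.26 (adjusted p = 9.17e-07, limma). Reln, at 8.49 and 8.54, rose by 1.47 ± 0.16 (adjusted p = 3.47e-08, limma), and Dlk1, at 11.10 and 11.20, rose by 2.18 ± 0.25 (adjusted p = 4.36e-08, limma). Cbln1 rose by 1.55 ± 0.30 and Cbln2 fell by 1.63 on the log2 scale, with an SE of 0.30 (adjusted p = 0.000396 and 0.000256, limma). All 5 also differed from Pou3f1 alone, a comparison in which 8.97% of genes were called: Cbln2 by -2.11 ± 0.30, Cbln1 by 1.77 ± 0.30, Rpp25 by 1.20 ± 0.26, Dlk1 by 0.96 ± 0.25 and Reln by 0.69 ± 0.16 (adjusted p from 7.89e-06 to 0.00954, limma). Of these, Dlk1 and Reln lost their call when 1 of the arrays of these lines was left out: Dlk1 without either Pou3f1;Hoxc6 array (0.91 and 1.01) or Pou3f1 replicate 2 (0.86), and Reln without Pou3f1;Hoxc6 replicate 2 (0.67) or Pou3f1 replicate 2 (0.56). In CD2 Hoxc6 (2.35% called) Reln rose by 1.69 ± 0.22, Cbln1 by 1.83 ± 0.40, and Cbln2 differed by -2.41 ± 0.41 (adjusted p = 7.77e-06, 0.00722 and 0.000477, limma). Cbln1 there lost its call without the batch 5 array of H4 (0.94), the batch 2 array of H4 (1.42) or Hoxc6 replicate 2 (1.54).

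Pou3f1 with Hoxa5 gave another picture of the cerebellins. In Pou3f1;Hoxa5 (5.92% called) Dlk1 rose by 1.60 ± 0.25 and Cbln2 by 0.96 ± 0.30 (adjusted p = 4.95e-05 and 0.0496, limma), and the Cbln2 call was lost in 44 of the 68 fits that left out 1 array. In Pou3f1-FLAG (2.44% called) Dlk1 rose by 1.18 ± 0.25 (adjusted p = 0.00569, limma), which was lost without Pou3f1-FLAG replicate 2 (0.96) or either same-batch YFP array (1.10 and 1.26). Neither line differed from Pou3f1 alone for any member: 0 of 10 were called (limma, 2 with an unadjusted p under 0.05 in each), against 3.45% and 2.21% of all genes.

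In the lines with the Notch1 intracellular domain, the part of the receptor that enters the nucleus to activate target genes, 4 members were called after 10 h and 4 after 30 h of induction. In Notch1 ICD (30), where 6.07% of genes were called, Rpp25 read 8.69 and 8.59 and rose by 1.16 ± 0.25 (adjusted p = 0.00141, limma). Cbln4, at 8.44 and 8.32, rose by 0.71 ± 0.18, Tafa4 rose by 0.56 ± 0.14 and Cbln2 differed by -1.29 ± 0.28 (adjusted p = 0.0118, 0.00985 and 0.00204, limma). Without either array of this line Cbln4 was no longer called (0.65 and 0.77), nor was Cbln2 without replicate 1 (-0.97) or Tafa4 without replicate 2 (0.33). In Notch1 ICD (10), where 2.96% of genes were called, Lamp5 read 7.94 and 8.15 and rose by 0.89 ± 0.18 (adjusted p = 0.00292, limma), with 0.79 and no call without replicate 2. Rpp25 (-1.16), Cbln1 (-1.56) and Cbln2 (1.81) were called there too, but their arrays read 7.25 and 7.21, 8.63 and 8.57, and 10.61 and 10.65, close to CD2 YFP, and all 3 calls were lost without the 6 batch 4 arrays (-0.34, -0.48 and 0.37, with 0.772% of genes called).

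Notch1 ICD (30) minus Notch1 ICD (10) was called for Rpp25 (2.32 ± 0.33), Cbln2 (-3.10 ± 0.37), Cbln4 (1.02 ± 0.24), Dlk1 (0.97 ± 0.30) and Tafa4 (0.68 ± 0.19), against 6.41% of genes (adjusted p from 1.90e-07 to 0.0457, limma). Those lines lay in batches 3 and 4 and are tied through the same 6 arrays. Without them, with 2.40% of genes called, Rpp25 was still called at 1.51, the other 4 did not, and Dlk1 turned to -0.53. In NERT (30), where 4.70% of genes were called, Cbln4 (0.67 ± 0.20), Reln (0.62 ± 0.16) and Tafa4 (0.51 ± 0.15) rose (adjusted p = 0.0400, 0.0181 and 0.0456, limma). The Cbln4 call was lost without any 1 of the 4 arrays of the line and its same-batch YFP (0.60 to 0.73), that of Reln without replicate 2 or either same-batch YFP array (0.49 to 0.64), and that of Tafa4 in 23 of 68 such fits. NERT (30) minus NERT (10) was called for 0 members (limma, 4 with an unadjusted p under 0.05) and 3.78% of genes. Hey1 (0.361% called) and Zic1 (0.291% called) each had 1 called member, Cbln1 at -1.22 ± 0.28 and Cbln2 at -1.92 ± 0.43 (adjusted p = 0.0444 and 0.0347, limma), and both calls were lost without the 6 arrays (-0.58 and -1.26, with 0.191% and 0.461% of genes called).

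The 6 arrays of batch 4 stood apart in several members, some of which read alike in the Hoxc6 lines and some not. They are the batch 4 arrays of Pou3f1 (2), Hoxa5, Chd5, H4 and Arid5b (1 each). All read Hoxa5, the Hox gene of phrenic and neighbouring cervical levels, at 12.15 to 12.75 against 9.06 to 9.97 in CD2 YFP, whatever their transgene. Lhx3 itself was also above CD2 YFP (7.69 to 7.86) in all of them. It was highest in the 2 Pou3f1 arrays, at 10.02 and 10.42, and read 8.74 to 9.26 in the others. In them Cbln1 read 9.82 to 10.55 and Cbln2 7.74 to 8.70, where CD2 YFP read 8.34 to 9.16 and 10.34 to 10.77, so neither range overlapped. The 3 remaining batch 4 arrays (Hey1 and Notch1 ICD (10)) read Cbln1 at 8.51 to 8.63 and Cbln2 at 10.16 to 10.65, near YFP. The 4 arrays of the Hoxc6 and Pou3f1;Hoxc6 lines read Cbln1 at 10.31 to 10.88, Cbln2 at 8.71 to 9.53 and Hoxa5 at 11.80 to 12.14. Lhx3 itself was also above the YFP arrays there, at 9.34 and 8.67 in CD2 Hoxc6 and 8.84 and 8.80 in Pou3f1;Hoxc6. Slitrk6, high with Lhx3, was low in both sets (5.31 to 5.60 and 5.21 to 5.82, against 6.27 to 6.76 in CD2 YFP). Car10 and Dlk1 differed between the sets. Car10 read 7.88 to 9.04 in the 6 arrays, above CD2 YFP (6.95 to 7.78), but 6.86 to 7.36 in the Hoxc6 lines. Dlk1 read 11.68 to 13.46 in the 6 arrays whatever the transgene and 10.45 to 11.20 in the Hoxc6 lines, against 9.77 to 10.41 in CD2 YFP.

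Without the 6 arrays, CD2 Lhx3 minus YFP became larger for Slitrk6 (5.26), Cbln1 (4.08) and Rpp25 (3.93) and smaller in size for Cbln2 (-1.01), and was close to the values above for Car10 (1.60), Cbln4 (0.97) and Reln (1.47). Lamp5 went to -0.93. In the same fit Zic1, which shares the batches of Lhx3, was called higher for Cbln1 (2.34) and Rpp25 (2.04), so these genes read high in both lines of those batches. Cbln1 and Cbln2 ran in opposite directions over the 30 groups, with a Pearson correlation of -0.60, and of -0.71 over the 26 groups without the Lhx3 and DNLhx3 lines.

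Genes related to the members were tested in the 4 lines, since no value of theirs chose the members. Of 96 related genes, 12 (12.5%) were called in CD2 Lhx3, 17 (17.7%) in CD2 DNLhx3, 23 (24.0%) in Pou3f1;Lhx3 and 22 (22.9%) in Pou3f1;DNLhx3, against 3.81%, 4.09%, 3.94% and 4.00% of all genes (limma, adjusted p under 0.05). These lists were chosen with results of these data known, and some hold genes of direct interest to the study, so their shares are counts and not a test of the lists. The 96 include Lhx3, whose call in CD2 Lhx3 and Pou3f1;Lhx3 was fixed by its induction. The median difference over all genes was -0.05 in CD2 Lhx3, -0.02 in CD2 DNLhx3 and -0.01 in each Pou3f1 line.

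Among 20 LIM factors and partners of Lhx3, 3 rose in CD2 Lhx3, 5 rose and 3 fell in CD2 DNLhx3, 4 rose and 1 fell in Pou3f1;Lhx3, and 4 rose and 3 fell in Pou3f1;DNLhx3. The 20 include Lhx3 itself, the induced gene, which is among the 3 in CD2 Lhx3 and the 4 higher in Pou3f1;Lhx3. The median differences of the list were -0.03, 0.03, -0.0038 and -0.03 in that order. Lhx1, the LIM factor of the lateral motor column and of several interneurons, rose by 4.10 ± 0.36 with DNLhx3 and by 3.59 ± 0.38 with Pou3f1;DNLhx3 (adjusted p = 1.87e-10 and 1.05e-08, limma). It did not pass with Lhx3 (-0.31 ± 0.55) or Pou3f1;Lhx3 (0.71 ± 0.38). Isl1, the motor neuron LIM factor, fell by 0.79 and 1.03 in the DNLhx3 lines (adjusted p = 0.000164 and 4.42e-06, limma). Lmo1, a LIM-only protein, fell by 1.00 in CD2 DNLhx3, 1.04 in Pou3f1;Lhx3 and 2.43 in Pou3f1;DNLhx3 (adjusted p = 0.000330, 0.000427 and 9.03e-12, limma). Lhx4, the close relative of Lhx3, rose by 1.18 in CD2 DNLhx3, Nkx6-1 by 1.26 in Pou3f1;DNLhx3, Mnx1 by 0.90 in Pou3f1;Lhx3 and Lmo4 by 0.87 in CD2 Lhx3. Lmo3 rose in all 4 lines, by 2.51 ± 0.61 in CD2 Lhx3, 1.52 ± 0.39 in CD2 DNLhx3, 2.25 ± 0.42 in Pou3f1;Lhx3 and 1.60 ± 0.42 in Pou3f1;DNLhx3 (adjusted p = 0.0174, 0.0180, 0.000441 and 0.0177, limma). Without the 6 batch 4 arrays its CD2 Lhx3 value was 1.95 and no longer called, with 4.21% of genes called. In that fit Isl1 was called lower (-0.98) and Mnx1 higher (0.92) in CD2 Lhx3 (adjusted p = 0.0147 and 0.0371, limma).

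Of 13 listed cerebellin-like ligands and receptors, 11 were measured. Of these, 1 rose in CD2 DNLhx3, 1 fell in CD2 Lhx3, 3 rose in Pou3f1;Lhx3 and 4 rose in Pou3f1;DNLhx3. The median of the list ran from -0.05 in CD2 DNLhx3 to 0.27 in Pou3f1;Lhx3. C1ql4, a C1q-like secreted protein, rose by 3.37 ± 0.27 in Pou3f1;Lhx3 and by 2.89 ± 0.27 in Pou3f1;DNLhx3 (adjusted p = 3.56e-11 and 5.86e-10, limma). In CD2 Lhx3 it was called lower (-1.67 ± 0.39), which was lost without the 6 arrays (-0.47). In that fit C1ql3 was called higher in CD2 Lhx3 (2.12, adjusted p = 0.0119, limma). C1ql2 rose by 0.97 in Pou3f1;Lhx3, the receptor Adgrb3 by 0.85 there and by 0.62 in Pou3f1;DNLhx3, and the receptor Neo1 by 0.32 in the latter. C1ql1, the ligand of Adgrb3, rose with DNLhx3 in both settings, by 1.71 ± 0.17 and 1.55 ± 0.18 (adjusted p = 2.98e-09 and 5.62e-08, limma).

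Of 12 genes of the reelin pathway, Dab1, the intracellular adaptor of the reelin receptors, and Efnb2, an ephrin ligand that binds reelin, rose in all 4 lines. Dab1 rose by 1.59 ± 0.16 (CD2 DNLhx3), 1.41 ± 0.24 (CD2 Lhx3), 0.82 ± 0.17 (Pou3f1;DNLhx3) and 0.69 ± 0.17 (Pou3f1;Lhx3), with adjusted p from 4.06e-09 to 0.00995 (limma). Efnb2 rose by 1.21, 0.65, 1.07 and 0.90 in the same order. The median of the list was between -0.08 (CD2 DNLhx3) and 0.14 (Pou3f1;DNLhx3). Vldlr, a reelin receptor, fell by 0.72 with an SE of 0.20 in CD2 DNLhx3 and rose by 1.14 ± 0.21 in Pou3f1;Lhx3 (adjusted p = 0.0260 and 0.000392, limma). Of 12 Notch ligands and receptors, relatives of Dlk1, only Notch2 passed, in Pou3f1;Lhx3 (-1.11 ± 0.32, adjusted p = 0.0409, limma), and 0 passed in the other 3 lines (limma, 0 to 3 with an unadjusted p under 0.05).

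The Slitrk and Lrrtm list, leucine-rich-repeat synaptic proteins with their receptors, had 12 genes. It had 2 higher in CD2 Lhx3, 2 higher and 2 lower in CD2 DNLhx3, 5 higher and 1 lower in Pou3f1;Lhx3, and 4 higher and 2 lower in Pou3f1;DNLhx3. Its median difference was 0.27, -0.05, 0.55 and 0.26 in that order. Lrrtm3, a neurexin ligand, rose in all 4 lines by 1.24 to 2.08, although its call in CD2 Lhx3 was lost without the 6 arrays (1.12). Lrrtm2 fell by 1.38 in CD2 DNLhx3 and 0.79 in Pou3f1;DNLhx3 (adjusted p = 7.72e-07 and 0.00598, limma), Slitrk3 rose by 1.45 in CD2 DNLhx3 and Lrrtm1 by 1.33 in Pou3f1;Lhx3. Lrrtm4 fell by 1.44 in CD2 DNLhx3, 1.88 in Pou3f1;Lhx3 and 2.21 in Pou3f1;DNLhx3. Ptprd, a receptor phosphatase that binds Slitrk proteins, rose in CD2 Lhx3 (1.21 ± 0.26), Pou3f1;Lhx3 (1.35 ± 0.18) and Pou3f1;DNLhx3 (0.72 ± 0.18), with adjusted p = 0.00842, 2.40e-06 and 0.0112 (limma).

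Of the relatives of Tafa4, Tafa5 fell in all 4 lines, by 1.03 in CD2 Lhx3, 0.97 in Pou3f1;Lhx3, 0.66 in Pou3f1;DNLhx3 and 0.58 in CD2 DNLhx3 (adjusted p = 0.00258, 5.77e-06, 0.00139 and 0.00376, limma). Tafa1 rose with Lhx3 (0.99 ± 0.22) and with Pou3f1;Lhx3 (1.31 ± 0.15), and Tafa2 fell in the same lines by 1.32 and 0.94. Lrp1 rose by 0.42 in Pou3f1;DNLhx3. Of 8 carbonic anhydrases and related proteins, Car2 rose in Pou3f1;Lhx3 (2.47 ± 0.30, adjusted p = 2.64e-07, limma), and Car11, a relative of Car10 that also lacks catalytic activity, rose by 0.97 there and by 0.91 in Pou3f1;DNLhx3. Car7 fell by 0.65 in CD2 Lhx3 (adjusted p = 0.0165, limma). Of the 5 genes listed with Lamp5 (Lamp1, Lamp2, Lamp3, Cd68 and Slc32a1, the last a vesicular transporter of GABA and glycine and no member of that family) and the 11 other subunits of RNase P and RNase MRP, 0 were called in any of the 4 lines (limma, 0 and 0 to 2 with an unadjusted p under 0.05).

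Markers of cell types moved beside the members. The defining motor neuron markers were high in all groups, with a mean over 14 markers of 11.34 to 11.55 in the YFP arrays. That mean was 11.93 to 12.03 in CD2 Lhx3 and 11.92 to 11.94 in Pou3f1;Lhx3, 11.05 to 11.18 in CD2 DNLhx3, and 10.68 to 10.76 in Pou3f1;DNLhx3. The list holds Lhx3 itself. Of the 14, 7 fell and 2 rose in CD2 DNLhx3 and 10 fell and 0 rose in Pou3f1;DNLhx3, whereas 2 rose and 0 fell in each Lhx3 line. The median difference over the 14 was -0.54, -0.78, 0.26 (CD2 Lhx3) and 0.16 (Pou3f1;Lhx3). Rpp25, Cbln4 and Car10 had their highest group means in the DNLhx3 lines, those with the lowest motor neuron means of these 6 groups. The part of cell composition in the members' levels was not tested, and fewer cells of a type and less RNA per cell cannot be told apart in these samples.

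The V2a interneuron list (6 measured markers, Lhx3 and Lhx4 included) had a mean of 7.33 to 7.79 in YFP. That mean was 8.36 to 8.42 in CD2 Lhx3 and 8.84 to 9.14 in Pou3f1;Lhx3. In the DNLhx3 lines it was 8.02 to 8.05 (CD2) and 8.15 to 8.16 (with Pou3f1). The only marker called in CD2 Lhx3 was Lhx3, the induced gene, where 3.81% of all genes were called. Lhx3, Shox2 and Slc17a6 rose in Pou3f1;Lhx3 (3.94% of all genes called). Slc17a6 and Lhx4 rose in CD2 DNLhx3 (4.09%), and Shox2 and Slc17a6 in Pou3f1;DNLhx3 (4.00%). In each line 0 markers fell, and 3 to 5 of the 6 were not called. The V1 and V0 list (8 markers, Lhx1 included) had a mean of 7.25 to 7.50 in YFP, 7.35 to 7.43 in the Lhx3 lines of both reporters, 8.08 to 8.15 in CD2 DNLhx3 and 7.94 in Pou3f1;DNLhx3. Lhx1 rose in both DNLhx3 lines and Foxp2 in all 4 lines, and Evx2 and Foxd3 fell in CD2 Lhx3. The other 6 markers were not called in either DNLhx3 line. The median difference over the 8 was only 0.03 in CD2 DNLhx3 and 0.0058 in Pou3f1;DNLhx3, so most of these markers did not share the higher mean. It was -0.41 in CD2 Lhx3 and -0.08 in Pou3f1;Lhx3. Markers of Cajal-Retzius neurons, a reelin-positive type, had a mean of 8.37 to 8.70 in YFP and 8.42 to 8.53 in Pou3f1;DNLhx3, the line with the highest Reln. Of those 8 markers, 0 rose and 1 (Ebf2) fell there.

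The genes most like each member were named by Pearson correlation of group levels over 30 groups. Besides Cbln4 for Rpp25, they were Grm5 (0.93) and Gabrg3 (0.92) for Reln, Plch1 (0.91) for Car10, Bpifc (0.90) for Tafa4, Kank1 (0.90) for Cbln1, Ehd1 (0.89) for Cbln2, Pmfbp1 (0.88) for Cbln4 after Rpp25, Arhgef3 (0.87) for Lamp5, Glis3 (0.87) for Slitrk6 and Begain (0.83) for Dlk1. Next came Ypel2 (0.88) for Rpp25, Anxa10 (0.89) for Tafa4, Ndst3 (0.88) for Cbln2, Chrna7 (0.86) for Car10, Sim2 (0.84) for Lamp5, Dis3l (0.84) for Cbln1, Kit (0.79) for Dlk1 and Nxph2 (0.76) for Slitrk6. Without the Lhx3 and DNLhx3 lines, over 26 groups, Plch1 (0.88) and Begain (0.82) stayed first for Car10 and Dlk1. For other members another gene came first, namely Tshz1 (0.94) for Reln, Krt7 (0.91) for Lamp5, Efnb2 (0.89) for Cbln4, Fgf13 (0.89) for Cbln2, 5730596B20Rik (0.89) for Cbln1, St3gal1 (0.86) for Rpp25, Frmd3 (0.84) for Slitrk6 and Hdac9 (0.79) for Tafa4. For Tafa4 the first-named genes rest on the single high line, since no other line had a high level. For Slitrk6 the CD2 Lhx3 line stood far above the rest. Pou3f1;Lhx3 (7.57 and 7.42) came next, above the 58 other arrays (highest 7.05).

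The protein-coding genes on either side of each member were examined after the members' values had been seen, by their order in RefSeq. Of 20 such neighbours, 1 rose and 1 fell in CD2 Lhx3, and 3 rose and 1 fell in CD2 DNLhx3. In each of Pou3f1;Lhx3 and Pou3f1;DNLhx3, 4 rose and 1 fell. The shares of all genes called were 3.81%, 4.09%, 3.94% and 4.00% in that order. Tafa1, Slitrk1 and Slitrk5 were also among the 96 related genes counted above. Begain, which codes for a synaptic scaffold protein, is the neighbour of Dlk1 on 1 side, 384243 bases away. It rose by 1.02 ± 0.19 in CD2 DNLhx3, 2.27 ± 0.21 in Pou3f1;Lhx3 and 2.64 ± 0.21 in Pou3f1;DNLhx3 (adjusted p = 0.000715, 6.53e-10 and 7.25e-12, limma). In these 3 lines Dlk1 was more than 1 log2 unit above YFP. Rtl1, the nearer neighbour of Dlk1 at 101564 bases, was not called in any of the 4 lines (adjusted p from 0.255 to 0.943, limma). The neighbours of Cbln2 are Neto1, 204340 bases away, and Socs6, 2146886 bases away. Neto1 rose by 0.77, 1.07 and 0.96 and Socs6 fell by 0.98, 0.76 and 1.30 in CD2 DNLhx3, Pou3f1;Lhx3 and Pou3f1;DNLhx3. Tafa1, which rose in the Lhx3 lines, is a neighbour of Tafa4, 174002 bases away. Eogt, the nearer neighbour of Tafa4 at 49605 bases, was not called in any of the 4 lines (adjusted p from 0.252 to 0.731, limma). For Rpp25, Cbln1 and Car10, no neighbour was called in any of the 4 lines.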

How the data were processed

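RNA of 68 samples was hybridised to Affymetrix mouse gene arrays. The authors deposited log2 values for 35556 transcript clusters, made with RMA (background correction, quantile normalization and probe summary) through oligo, per the submitters' processing notes. No version or annotation build is given in the sources used here. Scanner intensities were not used here, so for arrays only their number limits the stated precision. Of 23410 annotated clusters, 21789 had 1 symbol and 1621 had several, which were left out. The entrez identifiers of 21698 matched the RefSeq gene table and 0 were renamed. For 999 genes with several clusters the cluster with the highest mean was used, so 19938 genes entered.

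A limma 3.58.1 model (R 4.3.3, lmFit and eBayes) had 1 term for each of 31 groups and 1 for batch (37 columns, 31 residual and 6.08 prior degrees of freedom). Tests were two-sided with Benjamini-Hochberg adjustment over all genes of a comparison, and ± gives the standard error unless SD is stated. Rose and fell are used at an adjusted p under 0.05. Batch 0 held 1 group and entered no comparison. The control was YFP of the same reporter, as the series description states. The code was tested on simulated data with known changes.

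The members and lists were chosen with earlier results of these data known. Named genes were all members, the induced genes, at most 4 called genes per list and comparison with the smallest adjusted p, and the 2 genes most correlated with each member (the first alone where the Lhx3 and DNLhx3 lines were left out). Neighbours, marker values, Hoxa5 and the related genes given as called only without the 6 batch 4 arrays were added after values were seen. Alternatives were no batch terms, batch as a random block, the reporters fitted apart, other scalings, a filter on dim genes, an intensity trend, the mean of a gene's clusters, a replicate block, leaving out 6 batch 4 arrays, and leaving out each array. Promoter windows came from RefSeq (GRCm38.p6).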

Additional observations from a re-analysis of the deposited data

Results flagged for a closer look

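Among 30 sets of 4 YFP or Pou3f1 arrays examined, 1 array stood far from the other 3 by Dixon's criterion in 2 cases, and chance alone marks about 1 in 20 such sets. Cbln2 read 10.765 in replicate 2 of CD2 YFP in batch 3, while the other 3 CD2 YFP arrays read 10.341 to 10.393. Tafa4 read 7.11 in replicate 1 of CD2 YFP in batch 1, while the other 3 read 6.66 to 6.72.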

How the results depend on the processing

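The count of 29 member and line pairs called against YFP ran from 22 to 39 over the alternatives other than leaving out arrays, and that of 74 related-gene calls from 63 to 87. The 10 calls between other lines became 4 without batch terms and 21 with CD2 and CD14 arrays fitted apart. They were 13 after a further quantile normalization, of which 8 were higher, against 8 of 10. Dlk1 in Notch1 ICD (30) minus Notch1 ICD (10) reversed to -0.18 without batch terms and to -0.53 without the 6 batch 4 arrays. The cause was not tested. Leaving out 1 array at a time gave 24 to 35, 7 to 14 and 63 to 79 calls for these 3 counts. Of 39 called pairs of member and comparison, 17 held in all 68 such fits, 22 lost their call in at least 1 and 0 changed sign.

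With the replicate block the 3 counts were 27, 9 and 63. Some groups share replicate numbers within a batch. In 29 pairs of such groups the correlation of same-numbered deviations ran from -0.17 to 0.57 with a median of -0.03, and 10 exceeded 0.1, among them Btbd3, Tox and Vwc2 in batch 3 (0.27 to 0.57). Since not every pair exceeded 0.1 and the labels name no shared origin, the numbers were not taken to pair the samples. Groups of 2 arrays and the missing CD2 YFP arrays of batches 4 to 6 limit the CD2 comparisons in those batches.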
